A study of Mus musculus with 2 samples.

Results

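A set of 10 genes of the mammary stroma was chosen by symbol: the PDGF receptors *Pdgfra* and *Pdgfrb*, the proteoglycans *Dcn* and *Lum*, the fibulins *Fbln1* and *Fbln2*, the adhesive and matricellular glycoproteins *Postn*, *Fn1* and *Sparc*, and the surface marker *Thy1*. All 10 of them were found among the 25810 genes listed by symbol, and all 10 passed 10 RPM (reads of a gene relative to all mapped reads, on the usual per-megaread scale) in both libraries. The libraries were 1 from WT and 1 from *Igfbp7*-/- mice, both made from mammary cells of the inguinal glands on lactation day 3 and sequenced as poly(A) RNA. The knockout allele lacks exon 1 of *Igfbp7*. The sample labels give a C57BL/6 background for both genotypes, whereas the methods of the study place the knockout on CD1, and the number of animals behind each library was not found in either source. Cells that carried CD45, CD31 (CD35 in the labels) or Ter119, the marks of leukocytes, endothelial cells and erythroid cells, had been removed with magnetic beads. The depletion was not aimed at fibroblasts.

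Stromal fibroblasts lie between the mammary ducts and alveoli and build the matrix around them. PDGF receptors are tyrosine kinases through which fibroblasts and pericytes receive growth signals. Decorin and lumican are small leucine-rich proteoglycans that sit on collagen fibrils and set their spacing. Fibulins join basement membranes and elastic fibres, fibronectin gives cells a substrate for integrins, and matricellular proteins such as periostin and SPARC change how cells hold on to the matrix. In the mammary gland this matrix is rebuilt with each cycle of pregnancy, lactation and involution.

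The mapped reads numbered 34327854 in the WT library and 35016847 in the *Igfbp7*-/- library, of which 82.3% and 72.3% fell on listed genes. *Igfbp7* itself was at 152 RPM in the WT library against 1.06 RPM in the other. The 14026 genes with at least 1 RPM in a library served as the background. Each genotype had 1 library and no replicate, so nothing here was tested, and the 95% intervals cover counting error only. A gene was called higher or lower at a ratio of at least 1.5 between the libraries, the fold used in the study, after 0.1 RPM had been added to each value. RPM serves for the same gene in both libraries, and RPKM, which is RPM per kilobase of transcript, for levels of different genes.

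Of the 10 stromal genes, 2 were lower in *Igfbp7*-/- (*Lum* and *Sparc*), 1 was higher (*Fbln1*), and 7 differed by less than 1.5 times. Among all 14026 genes, 23.0% were lower and 21.4% were higher, so the number of stromal genes called in either direction was close to the background. At a ratio of 2, *Lum* and *Sparc* remained the 2 called lower and 0 were called higher, beside 13.8% and 9.64% of all genes. Of the 8201 genes that reached 10 RPM, as the 10 genes did, 20.4% were lower and 20.7% higher by 1.5 times. Fewer cells of a type and less RNA per cell cannot be told apart in bulk libraries like these. The genes did not share a direction: their log2 ratios ran from -2.25 for *Lum* to 0.60 for *Fbln1*, with a median of -0.32, beside a median of 0.035 for all genes. When counts were scaled to the reads on listed genes, the median of all genes moved up by 0.19, the share of calls that were higher went from 48.2% to 62.2%, and the median of the 10 genes became -0.13. *Fbln1* lay at the threshold, with a ratio of 1.51, and was no longer called after scaling by TMM (log2 ratio 0.58) or with 1 RPM added to each value.

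**Figure D1:**
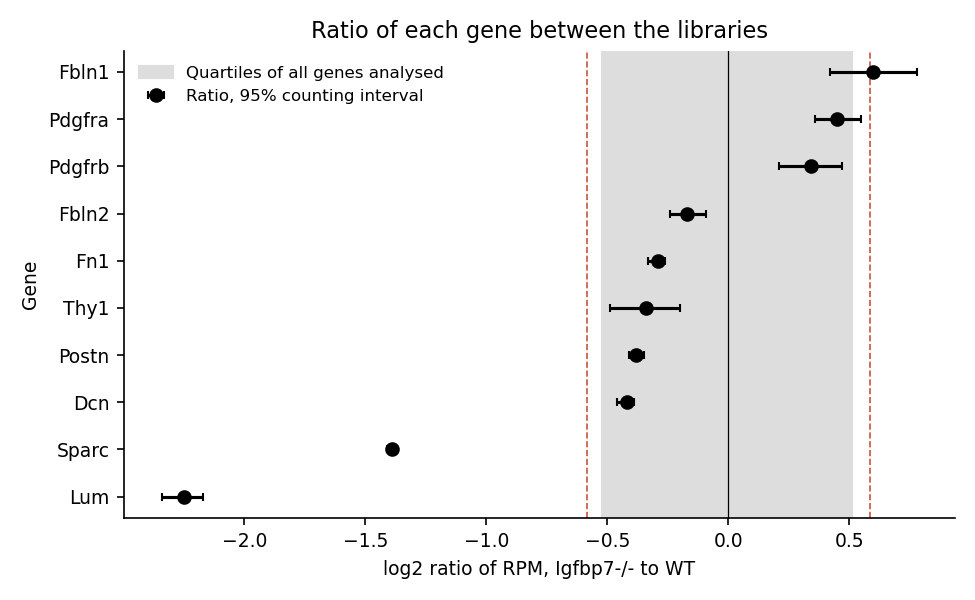
Log2 ratio of RPM in the Igfbp7-/- library to RPM in the WT library (horizontal axis) for each of the 10 genes. Points are ratios, bars 95% counting intervals (narrower than the point for Sparc), the grey band the quartiles of all 14026 genes (-0.52 to 0.51), and the dashed lines a ratio of 1.5 in either direction. Lum and Sparc lie far below the band, Fbln1 lies just at the upper line, and the other 7 genes lie inside the band.

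Set among all genes, *Lum* stood at the percentile 2.90 of the ratios and *Sparc* at 8.33, counted from the lowest. *Dcn*, *Postn*, *Thy1*, *Fn1* and *Fbln2* lay between the percentiles 28.3 and 39.5. *Pdgfrb*, *Pdgfra* and *Fbln1* were at 66.8, 72.4 and 79.1.

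**Figure D2:**
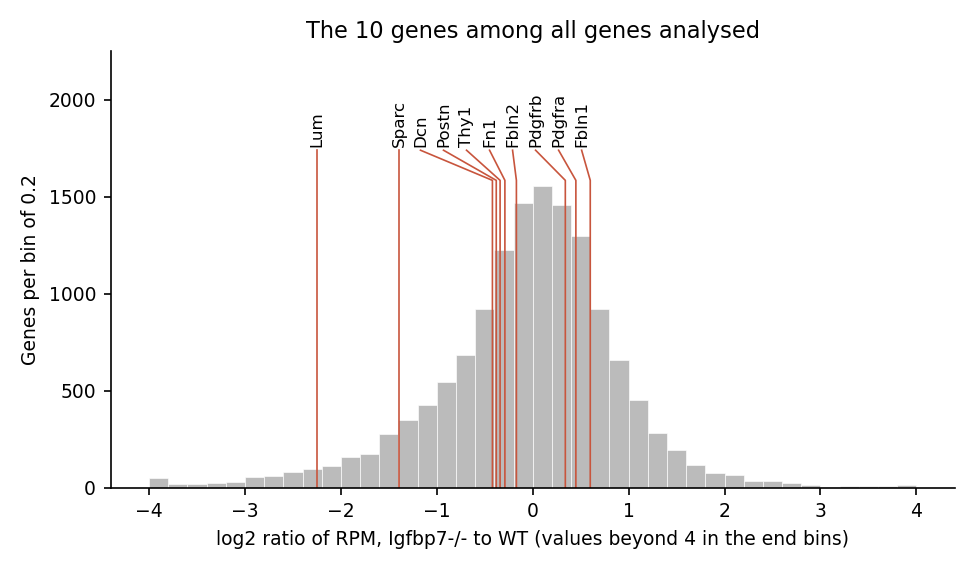
Number of genes (vertical axis) in bins of 0.2 of the log2 ratio of Igfbp7-/- to WT (horizontal axis), over the 14026 background genes. Red lines mark the 10 stromal genes, of which Lum (-2.25) and Sparc (-1.39) fall in the left tail.

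In both libraries the level per length was highest for *Sparc*, followed by *Dcn* and *Postn*, and lowest for *Fbln1*. The 10 genes spanned 179-fold in RPKM in WT and 45.1-fold in *Igfbp7*-/-. *Sparc* ranked 16th of 21990 protein-coding genes by RPKM in the WT library and 52nd in the *Igfbp7*-/- library, *Dcn* ranked 48th and 69th, and *Postn* 57th and 78th. The order of the 10 genes changed at 1 place, where *Lum* stood above *Fn1* in WT (194 against 117 RPKM) and below it in *Igfbp7*-/- (40.5 against 95.2 RPKM). The neighbours *Pdgfrb* (11.9 RPKM, counting interval 11.2 to 12.6) and *Fbln1* (11.0 RPKM, 10.1 to 11.8) had overlapping intervals in *Igfbp7*-/-. In WT the lower bound of *Pdgfrb* (9.36 RPKM, from 8.75) lay above the upper bound of *Fbln1* (7.22 RPKM, up to 7.95).

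**Figure D3:**
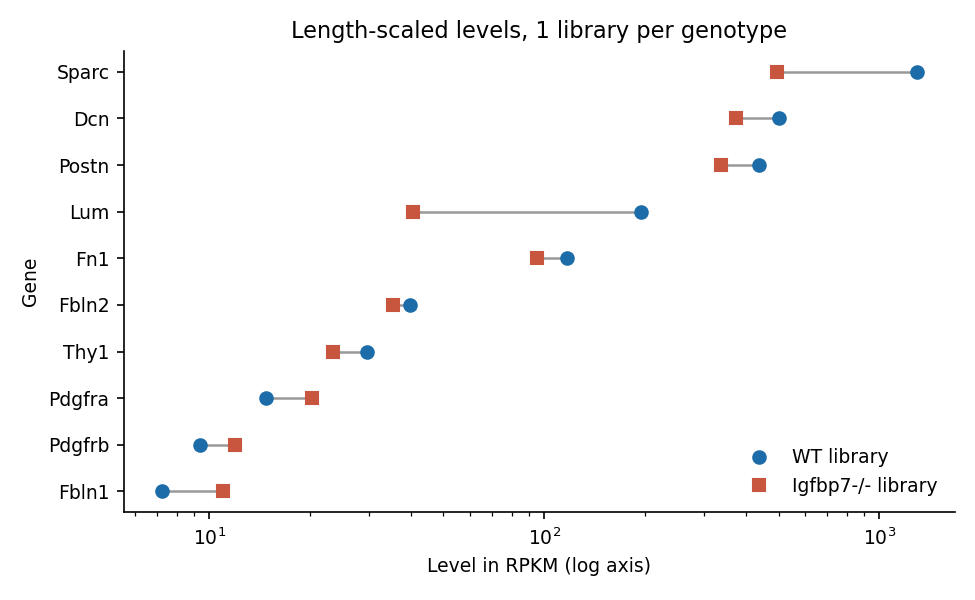
Level of each of the 10 genes in RPKM (horizontal log axis) in the WT library (blue circles) and the Igfbp7-/- library (red squares), 1 library per genotype, ordered by the WT level. The widest gaps are those of Lum (194 and 40.5 RPKM) and Sparc (1295 and 494 RPKM), and only Pdgfra, Pdgfrb and Fbln1 have the red square to the right.

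*Sparc* encodes a collagen-binding glycoprotein that takes part in collagen deposition. The WT library held 102163 reads, or 2976 RPM, and the *Igfbp7*-/- library 39781 reads, or 1136 RPM, the highest count of the 10 genes in each. The log2 ratio was -1.39 (interval -1.41 to -1.37), that is 38.2% of the WT level. *Sparc* alone made up 42.0% of the summed RPM of the 10 genes in WT and 26.9% in *Igfbp7*-/-. The sum went from 7087 to 4221 RPM, a ratio of 0.596, and without *Sparc* from 4111 to 3085 RPM. Without *Sparc* and *Lum* it went from 3709 to 3001 RPM, a ratio of 0.809.

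*Postn* encodes periostin, which crosslinks and anchors matrix proteins. The WT library held 47781 reads, or 1392 RPM, and the *Igfbp7*-/- library 37518 reads, or 1071 RPM, a log2 ratio of -0.38 (-0.41 to -0.35). *Fn1*, the fibronectin gene, had 33314 reads (970 RPM) and 27707 reads (791 RPM), a log2 ratio of -0.29 (-0.33 to -0.26). Both were thus lower in *Igfbp7*-/- by less than 1.5 times, and over the alternatives their log2 ratios ranged from -0.41 to -0.17 for *Postn* and from -0.33 to -0.08 for *Fn1*.

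A ratio of genes within a library does not depend on how the library was scaled. Per length, *Postn* stood at 0.337 of *Sparc* in WT and at 0.680 of it in *Igfbp7*-/-, a change of 2.02-fold (log2 1.01, interval 0.98 to 1.05). The level of *Fn1* relative to *Sparc* changed by 2.14-fold (log2 1.09, 1.05 to 1.14). *Postn* relative to *Fn1* was 3.74 in WT and 3.53 in *Igfbp7*-/- (log2 change -0.08, -0.13 to -0.04), so that these neighbours in function kept nearly the same proportion in both libraries while *Sparc* did not.

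The proteoglycans *Dcn* and *Lum* are neighbours in the genome as well as relatives in sequence. In the NCBIM37 build, with the GENCODE annotation, *Dcn* lies on the plus strand at chr10:96942245-96980777 and *Lum* on the same strand at chr10:97028135-97035337, with 47.4 kb and no annotated gene between them. *Dcn* was at 32470 reads (946 RPM) in WT against 24703 reads (705 RPM) in *Igfbp7*-/-, with a log2 ratio of -0.42 (-0.46 to -0.39). *Lum* was at 13795 reads (402 RPM) in WT against 2946 reads (84.1 RPM) in *Igfbp7*-/-, with a log2 ratio of -2.25 (-2.34 to -2.17) or 21.0% of the WT level, the lowest ratio of the 10 genes. Per length, the level of *Dcn* was 2.59 times that of *Lum* in WT and 9.23 times in *Igfbp7*-/-, a change of 3.56-fold that no scaling of the libraries alters (log2 1.83, 1.74 to 1.92). The next genes on this strand are *Kera* (keratocan) and *Epyc* (epiphycan), proteoglycans of the same family, and both had few reads: 36 and 2 for *Kera* in WT and *Igfbp7*-/- (log2 ratio -2.87 with a counting interval from -9.58 to -1.54), and 12 and 0 for *Epyc*, which did not reach 1 RPM.

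The bases before the annotated transcript starts of the genes whose levels moved apart are given 5′ to 3′ on the strand of the gene, for *Lum* and *Sparc*, the genes called lower, *Fbln1*, the gene called higher, and *Postn*, which is set beside *Sparc*. They were read from the NCBIM37 genome, 100 bases each before the outermost start, and capitals mark any match on either strand to the TATA box motif TATAAA, the CCAAT box, the TEAD motif GGAATG or the AP-1 motif TGANTCA. *Sparc*, *Postn* and *Fbln1* have further annotated starts, whose stretches are not shown, and which start was in use was not tested.
*Lum* (chr10:97028035-97028134): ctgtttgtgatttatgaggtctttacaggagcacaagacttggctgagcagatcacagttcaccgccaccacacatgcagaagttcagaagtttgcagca
*Sparc* (chr11:55233583-55233682, minus strand): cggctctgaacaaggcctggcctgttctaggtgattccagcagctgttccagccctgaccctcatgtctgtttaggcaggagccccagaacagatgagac
*Postn* (chr3:54164931-54165030): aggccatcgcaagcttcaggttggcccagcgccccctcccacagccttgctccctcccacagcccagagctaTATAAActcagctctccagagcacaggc
*Fbln1* (chr15:85036279-85036378): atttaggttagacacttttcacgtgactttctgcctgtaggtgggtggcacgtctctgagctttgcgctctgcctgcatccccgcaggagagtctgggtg
Of these stretches, the one before *Postn* held a match, TATAAA beginning 28 bases before the start. The same 6 letters were found in 4.77% of the 46006 stretches of this length before protein-coding transcripts, the CCAAT box in 17.6%, the TEAD motif in 3.87% and the AP-1 motif in 2.26%.

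The fibulins moved apart. *Fbln1*, which encodes a glycoprotein of elastic fibres and basement membranes, was at 833 reads (24.3 RPM) in WT against 1289 reads (36.8 RPM) in *Igfbp7*-/-, with a log2 ratio of 0.60 (0.42 to 0.78). *Fbln2*, a fibulin of basement membranes and vessel walls, was at 6089 reads (177 RPM) in WT against 5536 reads (158 RPM) in *Igfbp7*-/-, with a log2 ratio of -0.17 (-0.24 to -0.09) that became 0.02 when counts were scaled to the reads on listed genes and 0.04 when they were scaled to those on protein-coding genes. Within a library, *Fbln1* stood at 0.182 of *Fbln2* per length in WT and at 0.310 in *Igfbp7*-/-, a change of 1.70-fold (log2 0.77, 0.57 to 0.96).

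Transcripts of the PDGF receptors were both more frequent in the *Igfbp7*-/- library, though by less than 1.5 times. *Pdgfra*, the receptor that marks fibroblasts, was at 3329 reads (97.0 RPM) in WT against 4650 reads (133 RPM) in *Igfbp7*-/-, a ratio of 1.37 (1.29 to 1.46). It passed 1.5 times when counts were scaled to the reads on listed genes or on protein-coding genes. *Pdgfrb*, the receptor of pericytes and of many fibroblasts, was at 1740 reads (50.7 RPM) in WT against 2248 reads (64.2 RPM) in *Igfbp7*-/-, a ratio of 1.27 (1.16 to 1.39). The level of *Pdgfra* relative to *Pdgfrb* was 1.58 in WT and 1.70 in *Igfbp7*-/- per length, a log2 change of 0.11 whose interval (-0.04 to 0.27) includes no change. By direction alone, *Pdgfra*, *Pdgfrb* and *Fbln1* were above a ratio of 1 and *Dcn*, *Lum*, *Postn*, *Fn1*, *Sparc* and *Thy1* below it under each scaling tried.

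*Thy1* encodes a small surface glycoprotein held by a lipid anchor, found on fibroblasts and also on T cells. The WT library held 1783 reads, or 51.9 RPM, and the *Igfbp7*-/- library 1435 reads, or 41.0 RPM, a log2 ratio of -0.34 (-0.49 to -0.20). It thus lay on the other side of a ratio of 1 from *Pdgfra*.

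Relatives and binding partners of the 10 genes were listed by family. None of the 4 PDGF ligands passed 1.5 times in either direction (median log2 ratio -0.12). *Pdgfa* was at 1128 reads in WT against 875 in *Igfbp7*-/- (log2 ratio -0.39), *Pdgfb* had 148 and 143 RPM, and *Pdgfc* had 20.1 and 28.2 RPM, so *Pdgfc* (log2 ratio 0.49, 0.29 to 0.69) was the ligand that differed in the same direction as the receptors by more than counting error.

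Of the other small leucine-rich proteoglycans, 11 of 15 passed 1 RPM in a library. Among these, 7 were lower and 0 were higher, with a median log2 ratio of -0.83, beside 23.0% lower and a median of 0.035 for all genes. Some of the 7 passed 1 RPM only in WT. With at least 1 RPM required in both libraries, 5 were lower and 0 were higher, beside 20.1% and 19.9% of all genes. The greatest difference was that of *Fmod*, which encodes fibromodulin, a collagen-fibril proteoglycan like lumican. The WT library held 2487 reads, or 72.4 RPM, and the *Igfbp7*-/- library 130 reads, or 3.71 RPM, a log2 ratio of -4.25 (-4.67 to -3.93). Among those with at least 10 RPM in a library, *Podn* (podocan) followed with 16.0 and 7.25 RPM. At the other end of these more abundant genes, *Prelp*, a proteoglycan that links basement membranes to collagen, had 126 and 108 RPM, and *Tsku* had 1084 and 877 reads (log2 ratio -0.33). *Bgn* (biglycan), the closest relative of decorin, had 756 RPM in WT and 498 RPM in *Igfbp7*-/- (log2 ratio -0.60, -0.64 to -0.56). *Dcn* and *Bgn* thus differed by far less than *Lum* and *Fmod*.

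Among 20 other fibulins and elastic fibre genes, 6 were lower and 3 were higher (median log2 ratio -0.21), beside 23.0% and 21.4% of all genes, so these counts were not far from the background. *Eln* (elastin) had 57.5 RPM in WT against 27.8 RPM in *Igfbp7*-/-, and *Fbln5*, which guides elastin onto fibres, had 68.3 and 34.2 RPM. In the opposite direction, *Ltbp2*, a latent TGF-beta binding protein of elastic fibres, had 11.2 and 26.2 RPM, and *Hmcn2* (hemicentin) had 21.4 and 43.8 RPM.

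Of 24 other matricellular and SPARC family genes, 21 passed 1 RPM in a library. Among these, 7 were higher and 5 were lower (median log2 ratio -0.09), beside 21.4% and 23.0% of all genes. The count of lower genes was thus at the background. Some of the genes called passed 1 RPM in 1 library only. With at least 1 RPM required in both libraries, 4 were higher and 4 were lower, beside 19.9% and 20.1% of all genes. *Cyr61*, a matricellular protein and early target of growth and stretch signals, was at 8571 reads (250 RPM) in WT against 37720 reads (1077 RPM) in *Igfbp7*-/-, with a log2 ratio of 2.11 (2.06 to 2.16). *Tnxb* (tenascin X), which binds collagen fibrils in loose connective tissue, had 125 and 298 RPM. *Wisp1* had 14.6 and 7.48 RPM, and *Smoc2*, which shares domains with SPARC, had 147 and 88.6 RPM. *Sparcl1*, the closest relative of *Sparc*, had 265 RPM in WT and 272 RPM in *Igfbp7*-/- (log2 ratio 0.04, -0.02 to 0.10).

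Of 14 fibronectin receptors and partners, 4 were higher and 4 were lower (median log2 ratio -0.22), again near the 21.4% and 23.0% of all genes. The integrin chains on the higher side were led by *Itgb6*, an epithelial chain (33.0 and 156 RPM, log2 ratio 2.24), and *Itgav*, its partner (253 and 705 RPM, 1.48). On the lower side were *Itga4* (13.6 and 4.26 RPM, -1.65) and *Itga9* (36.3 and 12.6 RPM, -1.52). Of the chains of the classical fibronectin receptor, *Itga5* had 463 and 269 RPM (-0.79) and *Itgb1* 761 and 694 RPM (-0.13), beside the log2 ratio of -0.29 of *Fn1* itself.

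**Figure D4:**
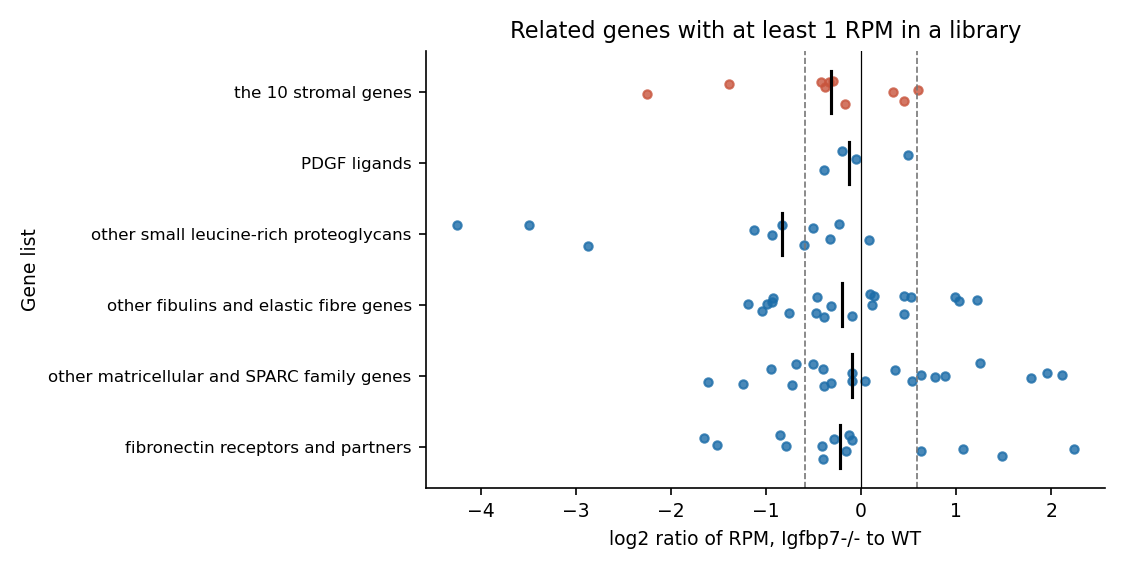
Log2 ratio of Igfbp7-/- to WT (horizontal axis) of the 10 stromal genes (red) and of each gene with at least 1 RPM in a library in 5 lists of relatives and partners (blue). Black bars are list medians and dashed lines a ratio of 1.5 in either direction; the other small leucine-rich proteoglycans have the lowest median (-0.83) and no gene beyond the upper line.

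Markers of the cells that such a suspension can hold were summed in each library, since many stromal genes are shared between cell types. Sums of all lists except the erythroid one were lower in the *Igfbp7*-/- library. Counts of called markers stand beside the same 23.0% lower and 21.4% higher over all genes. With 1 RPM required in both libraries (20.1% of all genes lower), lower calls fell to 6 pericyte, 7 leukocyte and 3 adipocyte markers. The other lists kept their lower calls. Of the 20 fibroblast markers that passed 1 RPM (of 21), 12 were lower and 1 was higher, with a median log2 ratio of -0.81 and a summed level of 11624 RPM in WT against 6035 RPM in *Igfbp7*-/-, a ratio of 0.519. The most abundant were the fibrillar collagens *Col3a1* (4670 and 1950 RPM) and *Col1a1* (1530 and 894 RPM). Fibroblast transcripts were thus abundant in both libraries, although the cells had been prepared as epithelial. Several genes of this list, such as *Vim*, *Cd34* and *S100a4*, are also expressed by other cells.

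For pericytes and vascular smooth muscle, 7 of 8 markers were lower and the sum had a ratio of 0.523, while *Pdgfrb*, which such cells also carry, was at 1.27. *Mcam* had 45.7 and 12.3 RPM, and *Rgs5* 71.3 and 35.3 RPM. Of 10 endothelial markers, 9 were lower, and the sum went from 1555 to 498 RPM, with *Cdh5* at 584 and 184 RPM and *Pecam1*, the gene of the depleted CD31, at 323 and 88.9 RPM. Of 10 myoepithelial markers, 9 were lower, and the sum went from 3834 to 1223 RPM, with *Acta2* at 1052 and 227 RPM and *Myh11* at 883 and 344 RPM. Endothelial and myoepithelial cells are also known to make *Sparc*, whose ratio of 0.382 stood beside ratios of 0.320 for the endothelial sum and 0.319 for the myoepithelial sum. Nearer to it were the adipocyte (0.373), luminal and secretory (0.391) and leukocyte (0.394) sums. The fibroblast (0.519), pericyte (0.523) and erythroid (1.17) sums lay further off. The part of any of these cell types in the level of *Sparc* was not tested.

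Of 10 leukocyte markers, 9 were lower (216 and 85.2 RPM in sum), with *Lyz2* at 66.9 and 24.1 RPM and *Ptprc*, the gene of the depleted CD45, at 43.5 and 18.1 RPM. Of the 6 adipocyte markers that passed 1 RPM, 4 were lower and 1 was higher (629 and 235 RPM in sum). This sum was carried by 1 gene, *Fabp4* (543 and 173 RPM), while *Pparg* had 55.6 and 40.7 RPM. Of 10 luminal and secretory markers, 5 were lower and 3 were higher (87879 and 34389 RPM in sum). The sum was carried by the caseins *Csn2* (53087 and 19970 RPM) and *Csn3* (19467 and 7473 RPM), whereas the luminal keratin *Krt18* had 250 and 1174 RPM. None of the 4 erythroid markers that passed 1 RPM was called, with *Hbb-b1* at 669 and 697 RPM and *Hba-a1* at 201 and 288 RPM, and *Epb4.2* was at 0 in the WT library. The part of these cells in the values of the 10 stromal genes was not tested.

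**Figure D5:**
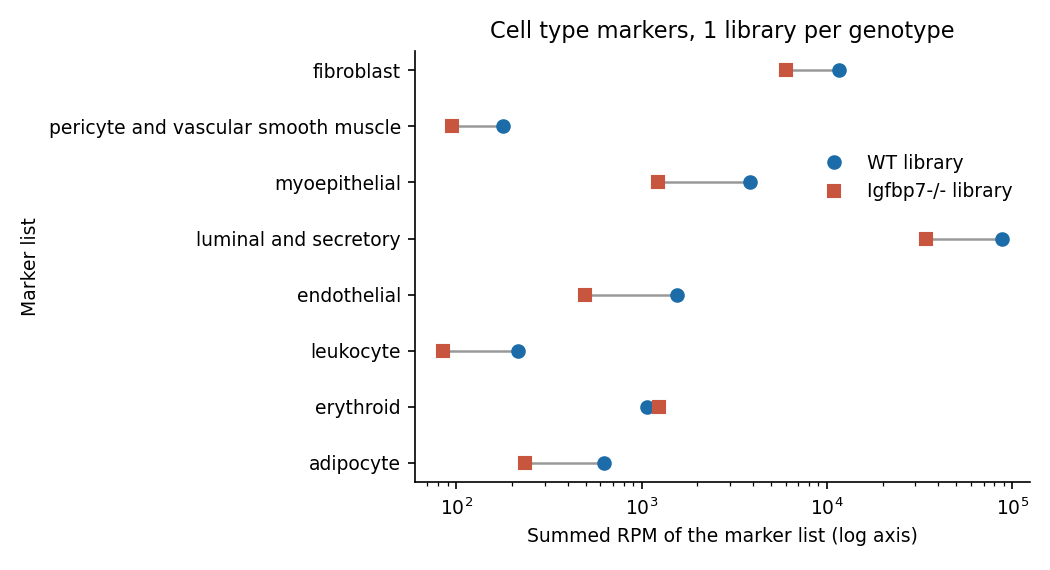
Summed RPM (horizontal log axis) of 8 lists of cell type markers in the WT library (blue circles) and the Igfbp7-/- library (red squares), 1 library per genotype. The red square lies to the left in 7 of the 8 lists, with the erythroid list (1066 and 1243 RPM) as the exception.

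No stretch of 35 bases, the length of the shorter reads, in the annotated protein-coding transcripts of the 10 genes had an exact match in those of another gene. Noncoding transcripts and inexact matches were not compared. In the annotation, *Fn1* (chr1:71632094-71699774, minus strand) overlaps *Apol7d* on the opposite strand, and whether the counting used strand was not stated, whereas the other 9 genes overlap no annotated gene.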

How the data were processed

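Mammary cells of lactation day 3 were sequenced on a SOLiD instrument as read pairs of unequal length, 1 library from WT and 1 from *Igfbp7*-/- mice, with groups taken from the genotype labels. For each gene the authors deposited its raw read count, left blank where it is 0. Their deposited RPM scales the count to the mapped reads of the library, and their deposited RPKM further divides by a length in kilobases. That length is of transcript size and not the span of the gene (6.57 against 45.9 kb for *Pdgfra*). The submitters' processing notes name Bowtie 0.12.3, SAMtools 0.1.15 and mm9, the UCSC name of the NCBIM37 build, while the methods name a human build, and the annotation is not given in the sources used here. The 50 rows without a symbol, and an unlabelled column filled in for some of them, were left out.

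Log2 ratios were computed from RPM after adding 0.1 RPM to each value, for genes with at least 1 RPM in a library, and called at 1.5 times. Counts were mostly even at low depth (75.8% and 74.1% of counts of 1 to 20 reads), so counting intervals were computed on read pairs: 95% Clopper-Pearson intervals for ratios, exact Poisson intervals for RPKM, and intervals from the summed Poisson variances for pairs of genes. They leave out the pseudocount and cover counting error only. In WT 3 reads are worth 0.0874 RPM, and in *Igfbp7*-/- 0.0857 RPM. Ratios and calls were also made where a library held fewer reads, as for *Kera*. No test was made, since each genotype had 1 library.

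The 10 genes and the lists were chosen with earlier results of these data known. Named are all 10 genes, *Igfbp7*, in each list of relatives the 2 highest and 2 lowest ratios at 10 RPM or more, and in each marker list the 2 most abundant markers and those at 0. A marker and an upstream sequence are not reported here. *Kera*, *Epyc*, *Bgn*, *Sparcl1*, *Itga5*, *Itgb1* and *Krt18*, and the pairs of genes compared, were chosen after their values were seen. Alternatives were pseudocounts of 0.01 and 1 RPM, RPKM, 5 other scalings or centrings (TMM from edgeR 4.0.16 among them), a ratio threshold of 2, 3 other minimums, and a call that also needs the counting interval to leave out a ratio of 1. A scaling to protein-coding reads was added after seeing the data. The scripts (Python 3.11.15, numpy 2.4.6, scipy 1.17.1, pandas 2.3.3) were tested on simulated counts.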

Additional observations from a re-analysis of the deposited data

How the results depend on the processing

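*Lum* and *Sparc* were the 2 genes called lower under each of 13 other settings and 1 added after seeing the data. The 1 gene called higher, *Fbln1*, was lost (0 genes) with 1 RPM added to each value, with TMM, after centring on the median of all genes and at a ratio threshold of 2, because its ratio lies at the threshold. With scaling to the reads on listed genes or on protein-coding genes, 2 genes were called higher (*Fbln1* and *Pdgfra*), and the median log2 ratio of the 10 genes was -0.13 and -0.11, respectively, in place of -0.32. These scalings moved the median of all genes by 0.19 and 0.21. No called gene changed direction; *Fbln2*, which was not called, ranged from -0.20 to 0.04. For the single genes, 28 of 140 values left the counting interval, and for the counts in the lists, 31 of 364 moved by more than 1.5 times. Leaving out a replicate was not possible with 1 library per genotype. No paired analysis was possible because each genotype had 1 library. Depth limits genes with few reads, such as *Kera* and *Epyc*. Of the 10 stromal genes, the fewest reads were the 833 of *Fbln1* in WT. The counting interval of its ratio (1.34 to 1.72) spans the threshold of 1.5, so depth also limits that call.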
